A study of Mus musculus with 6 samples.

Results

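The genes described here are the ATP-binding cassette (ABC) transporters of the mouse, in cultures of the calvarial preosteoblast line MC3T3-E1 before and after osteogenic differentiation. Members were taken by gene symbol, as the probe sets whose transcript belongs to a gene of subfamilies Abca to Abcg. Of 48 such symbols considered here from the RefSeq gene table, 45 had at least 1 probe set, among 17328 genes with a symbol and 41938 table entries tested. Abca13, Abca16 and Abcb5 had no matched probe set and are named only.

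Total RNA was hybridised to single-colour Cy3 NimbleGen arrays, 3 for undifferentiated and 3 for differentiated cultures, which the design text calls biological triplicates. Both groups were the same line at passages 5 to 12, grown in alpha MEM with fetal bovine serum and penicillin-streptomycin, and both had 24 hours of ethanol vehicle. Only the differentiated group had also had 15 days of glycerol-2-phosphate (10 mM) and ascorbic acid (50 µg/mL). The supplements, the time in culture and differentiation therefore cannot be told apart, and 1 line stands for the preosteoblast.

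ABC transporters bind and hydrolyse ATP on a pair of cytoplasmic domains and use that energy to move substrates across a membrane. The subfamilies differ in cargo: most A and several G members handle sterols and phospholipids, B and C members carry drugs, conjugates, peptides and bile acids, and D members serve peroxisomes and lysosomes. E and F members have the ATP-binding domains but no membrane domains and act at the ribosome. In bone, pumps of subfamily C are of interest because Abcc6 is tied to the release of ATP, a source of the mineralization inhibitor pyrophosphate, and Abcc4 exports cyclic nucleotides and prostaglandins.

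Start-site windows are shown for the 3 members whose call held without any single array, Abca1, Abcb1b and Abca8b, and for Abcb1a, which lies beside Abcb1b and was called in the same direction. Each runs from 250 bases before to 50 bases after the annotated start, 5′ to 3′ on the gene's strand, from RefSeq on GRCm38.p6. The windows lie at chr4:53159846-53160145 (minus strand, Abca1), chr5:8797897-8798196 (plus, Abcb1b), chr11:109995796-109996095 (minus, Abca8b) and chr5:8566841-8567140 (plus, Abcb1a). Capitals mark every match to the 7 motifs searched.
Abca1: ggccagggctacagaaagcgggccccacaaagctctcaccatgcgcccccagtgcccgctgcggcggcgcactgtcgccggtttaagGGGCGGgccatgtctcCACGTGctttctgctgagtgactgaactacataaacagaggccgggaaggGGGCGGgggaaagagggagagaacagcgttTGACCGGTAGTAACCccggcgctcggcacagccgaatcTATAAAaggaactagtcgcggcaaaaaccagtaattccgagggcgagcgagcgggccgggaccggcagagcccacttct
Abcb1b: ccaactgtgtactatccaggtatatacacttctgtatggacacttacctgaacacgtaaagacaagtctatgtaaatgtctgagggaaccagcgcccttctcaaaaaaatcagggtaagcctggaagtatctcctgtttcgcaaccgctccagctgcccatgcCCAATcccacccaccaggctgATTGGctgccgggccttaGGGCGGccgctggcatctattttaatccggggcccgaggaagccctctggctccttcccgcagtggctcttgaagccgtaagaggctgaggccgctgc
Abca8b: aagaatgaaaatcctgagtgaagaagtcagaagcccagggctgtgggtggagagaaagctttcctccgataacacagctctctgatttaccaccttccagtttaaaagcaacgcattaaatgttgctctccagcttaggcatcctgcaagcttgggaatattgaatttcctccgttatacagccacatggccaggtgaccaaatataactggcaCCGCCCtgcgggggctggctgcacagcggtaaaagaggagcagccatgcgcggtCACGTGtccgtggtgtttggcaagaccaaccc
Abcb1a: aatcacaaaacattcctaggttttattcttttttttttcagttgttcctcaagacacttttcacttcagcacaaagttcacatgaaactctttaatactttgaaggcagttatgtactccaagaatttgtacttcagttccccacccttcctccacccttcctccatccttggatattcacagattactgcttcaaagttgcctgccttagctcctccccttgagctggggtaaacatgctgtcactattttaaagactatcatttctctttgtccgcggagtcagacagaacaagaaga
The motifs were searched on both strands. They were TGTGGT, the core letters that RUNX factors bind, and TGANTCA, those of AP-1. The E-box was searched as CACGTG and the GC box as GGGCGG. The CCAAT box was searched by its name's letters and the TATA box as TATAAA. DR4, the spaced repeat known to bind LXR (liver X receptor) with RXR, was searched as GGTNA and GGTCA with any 5 bases between. No match overlapped another in these 4 windows. Counting the start as base 1 with no base 0, the Abca1 window held a DR4 match, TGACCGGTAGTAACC, at -67 to -53, an E-box at -147 to -142, GC boxes at -163 and -97 and a TATA box at -29. Of 32851 windows in the table, 0.207% held a DR4 match, and among the 35 members with a window 1 did. The Abcb1b window held CCAAT matches at -87 and -66 and a GC box at -48, and the Abca8b window a GC box at -36 and an E-box at 19 to 24. None of the 7 motifs was found in the Abcb1a window, which held 2 CpG dinucleotides against 12 for Abcb1b, 26 for Abca1 and a median of 7 over all windows. RUNX letters, of interest because the study concerns RUNX2 binding, were in none of these 4 windows. They were in the windows of 6 of the 35 members (Abca7, Abca8a, Abca9, Abca17, Abcc12 and Abcg2) and in 16.8% of all windows. A match describes letters and not a bound site.

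Deposited medians ran from 806 to 845 intensity units over the 6 arrays, and the random-sequence control probes, used here as the background level, read 101 to 114. Levels below are log2 intensities after quantile normalization, on which scale the random-sequence probes read 6.69 to 6.80. Undifferentiated replicate 3 deviated most from the other arrays of its group (root mean square over all entries 0.208, against 0.0820 to 0.154). The scanner image names carry a number that was shared by the 3 arrays of a culture state and differed between the states. What it stands for is not given in the sources used here, and any batch it marks cannot be told apart from differentiation. Of 10 osteoblast markers, 6 rose, at an adjusted p under 0.05 in the limma fit over all entries. That fit called 7.97% of entries higher and 9.04% lower. Runx2, Col1a1, Spp1 and Ibsp were not called. All 10 lay above the random-sequence probes on every array. So did 38595 of 41938 entries and all 6 adipocyte and 4 epithelial markers, so this does not mark osteoblasts. The summed intensity of the osteoblast list was 72287 to 78845 before and 86899 to 92352 after differentiation. Without Alpl it was 71537 to 78076 and then 80996 to 86019. Of markers of other cells, 1 of 7 macrophage and osteoclast genes rose (Ctsk, 0.98 log2), 2 of 5 endothelial (Tek, 1.49, and Pecam1, 0.47), 1 of 5 chondrocyte (Comp, 0.64) and 1 of 4 epithelial (Cdh1, 1.52), and 1 of 6 adipocyte genes fell (Adipoq, -0.42). The endothelial count was 1 without undifferentiated replicate 2 or differentiated replicate 1 or 2, where Pecam1 was not called. The adipocyte count was 0 without undifferentiated replicate 1 or differentiated replicate 1 or 2. Without undifferentiated replicate 3, 2 adipocyte genes fell and 2 epithelial genes rose. Summed intensities of the macrophage and osteoclast list went from 20672 to 21497 before to 39145 to 40054 after, of the endothelial list from 1786 to 1900 to 2486 to 2560, and of the epithelial list from 1228 to 1463 to 2140 to 2297. Without Ctsk the macrophage and osteoclast sum was 1773 to 2017 and then 1892 to 1990, and without Cdh1 the epithelial sum was 795 to 948 and then 890 to 979, overlapping in both cases. Without Tek the endothelial sum was 1592 to 1743 and then 1909 to 2170. The adipocyte (2564 to 3294, then 2877 to 3096) and chondrocyte sums (6040 to 7467, then 7146 to 7655) overlapped between the groups. The endothelial marker Cdh5 lay at or below the random-sequence probes on all 6 arrays, and the osteoclast marker Calcr on 5 of 6. The part of these lists in the ABC values was not tested. In bulk RNA, fewer cells that express a gene and less of its RNA per cell cannot be told apart.

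Differentiated cultures carried more mRNA for the cholesterol exporter Abca1 (5.24-fold), the A-subfamily gene Abca8b (1.61-fold) and Abca2, a lipid transporter of endosomes and lysosomes (1.30-fold). They carried less for the multidrug pump Abcb1b (2.86-fold lower), the lysosomal cobalamin transporter Abcd4 (1.41-fold lower), the second multidrug gene Abcb1a (1.32-fold lower) and the nucleotide exporter Abcc4 (1.30-fold lower). These were the 7 of 45 members called by limma, 3 higher and 4 lower, with p-values adjusted by Benjamini-Hochberg across the whole table and a threshold of 0.05. Of all entries 17.0% were called (7.97% higher and 9.04% lower), so the members' share of 15.6% was near the background and is not a result about the family. On the deposited values without quantile normalization the members split 3 higher and 2 lower, and with median centring 2 higher and 3 lower. Without undifferentiated replicates 1, 2 and 3 in turn, 2, 2 and 7 members were called higher and 2, 1 and 3 lower. Without differentiated replicates 1, 2 and 3 the counts were 3, 2 and 3 higher and 2, 1 and 2 lower. At a change of at least 2-fold Abca1 and Abcb1b passed, beside 2.41% of all entries. The groups' arrays did not overlap for 16 of 45 members (35.6%), beside 35.4% of all entries, and 1 of the 16, Abcg8, read at or below the random-sequence probes on every array. The median log2 fold change (differentiated minus undifferentiated) was 0.03 over the members and 0.00 over all entries. The p-values set each group difference against the spread among arrays within the groups, as moderated by limma, and rest on these 6 arrays only.

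**Figure D1:**
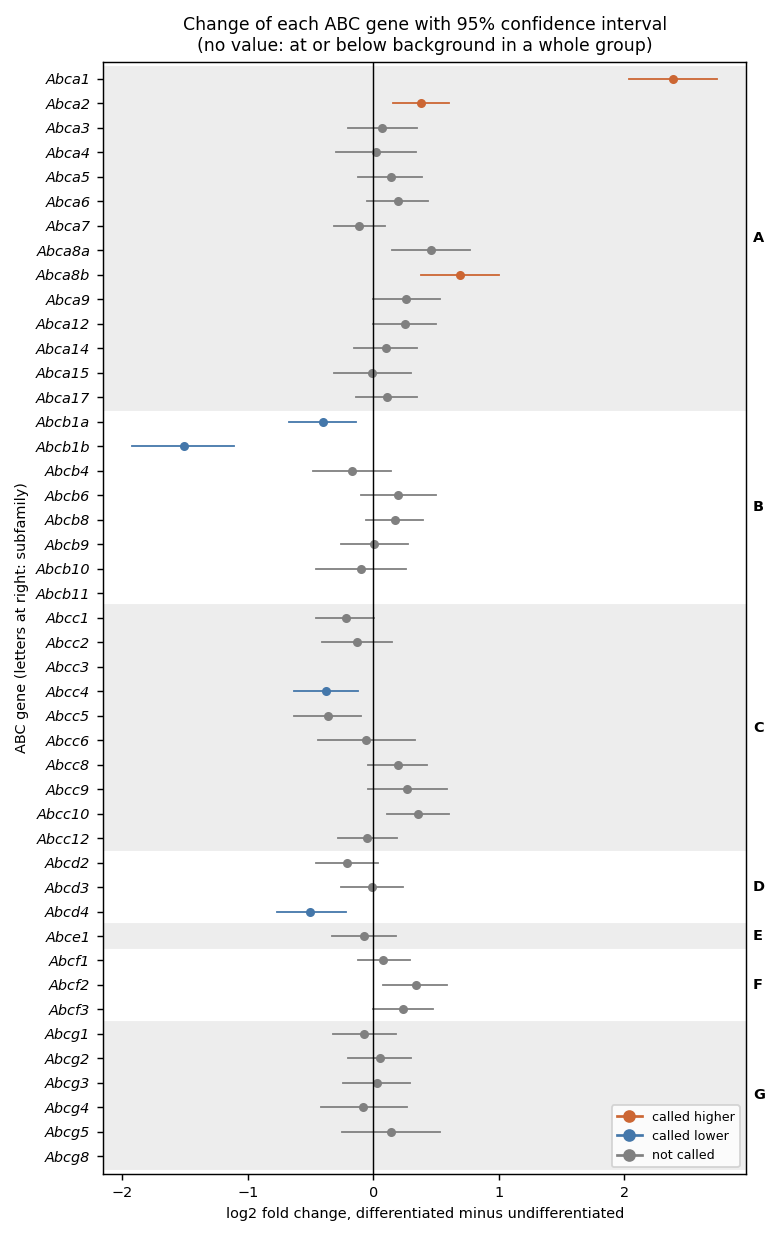
Log2 fold change of the members, differentiated minus undifferentiated, with its 95% confidence interval from limma, in subfamily order. Abca1 at 2.39 and Abcb1b at -1.51 lie apart from the other members drawn, which run from -0.50 to 0.69. Abcb11, Abcc3 and Abcg8 have no value, since each read at or below the random-sequence probes on every array of at least 1 group.

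Of the 45 members, 41 lay above the random-sequence probes on all 6 arrays. So did 38595 of all 41938 entries, and the count is not a result about the family. Abca17 did so on 2 of 3 undifferentiated and all 3 differentiated arrays, and Abcb11, the bile salt export pump of liver, on none of 3 and 1 of 3. No fold is given for Abcb11. Abcc3, a conjugate exporter, and Abcg8, which pairs with Abcg5 in sterol secretion, lay at or below them on all 6 arrays, at 5.98 to 6.18 and 6.06 to 6.31, so none is given for them either. A reading at the random-sequence probes does not show that a gene is silent: Calr, which encodes an abundant endoplasmic reticulum chaperone, read above them on 1 of 6 arrays.

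**Figure D2:**
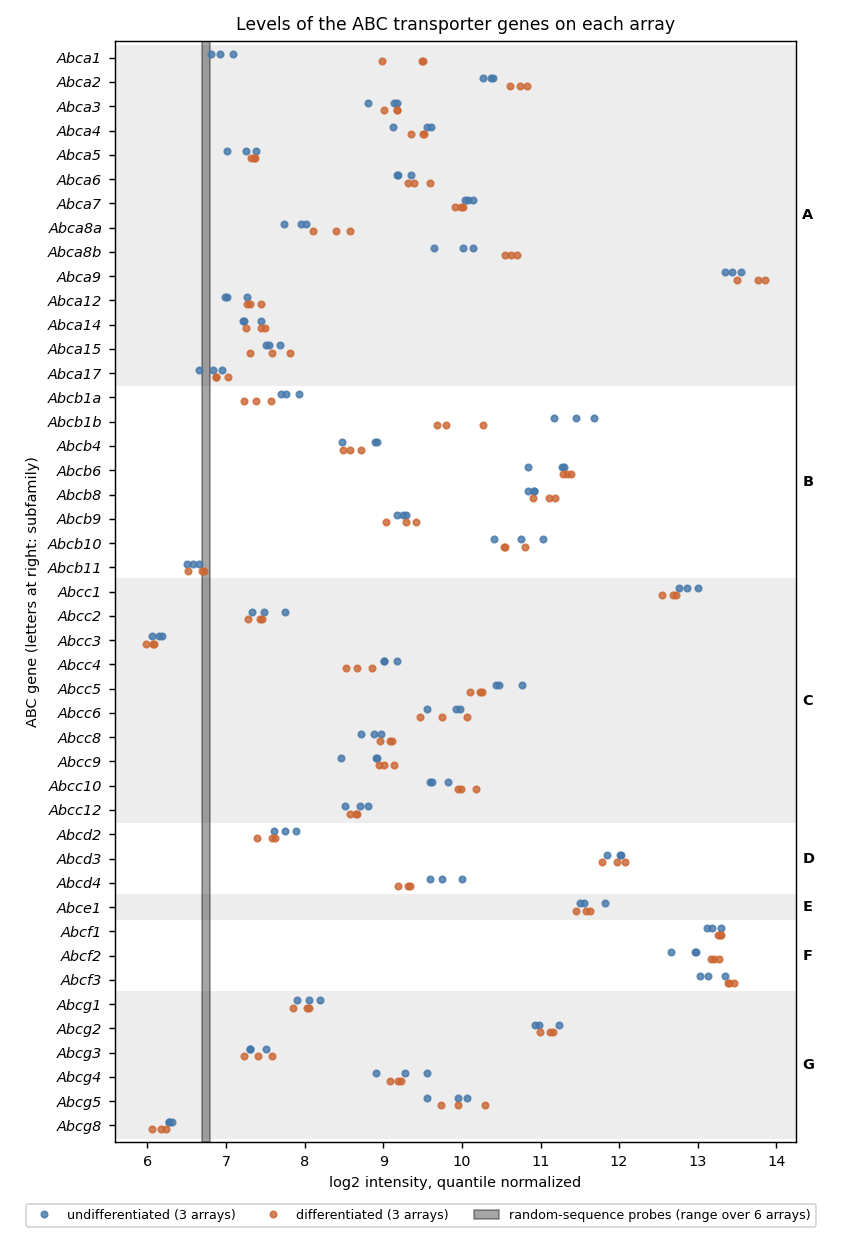
Quantile normalized log2 intensity of each member on each of the 6 arrays, with the range of the random-sequence probes (6.69 to 6.80) as a grey band. Abcc3, Abcg8 and Abcb11 sit at or under the band, and undifferentiated Abca1 touches its upper edge. Positions can be compared along a row, not between rows, since each probe set binds with its own efficiency.

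Among the members listed for transport of sterols and phospholipids, Abca1 had the largest change of any member. ABCA1 passes cholesterol and phospholipid to apolipoprotein A-I, the first step of high-density lipoprotein formation. Its levels were 6.81, 6.92 and 7.09 on undifferentiated replicates 1 to 3 and 8.98, 9.49 and 9.51 on differentiated replicates 1 to 3. The groups did not overlap, and the undifferentiated arrays read only 0.02 to 0.37 above the random-sequence probes, against 2.25 to 2.80 for the differentiated ones. Its log2 fold change was 2.39 ± 0.15 SE (limma, adjusted p = 3.5e-05). Because the lower group lay so close to background, the size depends on how low values are treated, and it was 2.00 with an offset of 50 intensity units. Abca1 (transcript NM_013454) is on chromosome 4.

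Abca2, on chromosome 2, read 10.40, 10.37 and 10.27 before and 10.61, 10.83 and 10.74 after differentiation. The 3 differentiated arrays all lay above the 3 undifferentiated ones, by a log2 fold change of 0.38 ± 0.10 SE (limma, adjusted p = 0.0291). Leaving out undifferentiated replicate 1 or 2, or differentiated replicate 2 or 3, ended the call, with an adjusted p of up to 0.146. The other genes of this list were not called. Abca7, a phospholipid exporter close to Abca1 in sequence, read 10.08 ± 0.05 before and 9.97 ± 0.05 after (mean ± SD, n = 3 per group). Abcg1, which loads cholesterol onto high-density lipoprotein, read 8.05 ± 0.14 and 7.98 ± 0.11, with a 95% interval of its log2 fold change from -0.32 to 0.18. Abcg4, its near relative in brain, read 9.24 ± 0.32 and 9.17 ± 0.08, and Abca5, a lysosomal member, 7.21 ± 0.19 and 7.35 ± 0.02. Thus 2 of 6 genes of this list rose, beside 7.97% of all entries, and 1 of 6 when the call of Abca2 was lost. Of the 2, Abca2 is a transporter of endosomes and lysosomes, so the count is not one of cell-surface exporters. Whether Abca1 differed from Abcg1, which share LXR as a known regulator, was not tested.

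The genes of LXR signalling and cellular sterol handling were looked at beside these transporters. Of 22 measured, 6 fell and 1 rose, beside 9.04% and 7.97% of all entries, and their median log2 fold change was -0.04 against 0.00 over all entries. Rxra, a partner of LXR, had a log2 fold change of -0.96 ± 0.19 SE (limma, adjusted p = 0.00985). Stard4, a cytosolic sterol carrier, changed by -0.81 ± 0.22 (adjusted p = 0.0356) and Srebf2, the transcription factor of sterol synthesis, by -0.69 ± 0.15 (adjusted p = 0.0133). Npc2, which hands cholesterol out of the lysosome, rose by 0.89 ± 0.11 (adjusted p = 0.00104). The LXR genes themselves, named with their values known, read 13.25, 13.40 and 13.25 before and 13.05, 12.86 and 12.92 after for Nr1h2 (called lower, adjusted p = 0.0393) and 9.06, 9.35 and 8.90 before and 9.65, 9.46 and 9.21 after for Nr1h3 (not called, adjusted p = 0.171). Without undifferentiated replicate 1 or 2 the list had 4 falls. With differentiated replicate 1 or 3 left out 3 falls were called, and with replicate 2 of that group left out 1 was, that of Rxra. The count of rises was 1 whichever array was left out.

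Abca8b belongs to a run of 5 neighbouring coding genes on chromosome 11, Abca8b, Abca8a, Abca9, Abca6 and Abca5, a cluster of related A members whose substrates are less well known. Abca8b read 9.64, 10.01 and 10.14 on the undifferentiated and 10.70, 10.63 and 10.55 on the differentiated arrays. All differentiated arrays were above all undifferentiated ones, and its log2 fold change was 0.69 ± 0.13 SE (limma, adjusted p = 0.00962). It was called in each of the 6 fits that left out 1 array, with log2 fold changes of 0.55 to 0.80. Abca8a, its neighbour, lay just outside the threshold. It read 8.02, 7.74 and 7.95 before and 8.40, 8.57 and 8.11 after, with no overlap, a log2 fold change of 0.46 ± 0.14 SE and an adjusted p of 0.0504, and it was called without undifferentiated replicate 3 or differentiated replicate 3. The other 3 genes of the run had positive values that were not called, 0.26 for Abca9, 0.20 for Abca6 and 0.14 for Abca5. Abca9 read 13.44 ± 0.10 before and 13.70 ± 0.18 after, and Abca6 9.24 ± 0.10 and 9.44 ± 0.15. Abca8a and Abca8b are close in sequence, and whether their probes tell the transcripts apart was not tested.

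The remaining A members gave no calls. Abca3, the surfactant lipid transporter of lung, read 9.04 ± 0.20 before and 9.12 ± 0.09 after. Abca4, the retinoid flippase of photoreceptors, read 9.43 ± 0.27 and 9.45 ± 0.10. Abca12, which carries lipids in skin, read 7.09 ± 0.15 and 7.34 ± 0.10. Abca14 and Abca15, neighbours on chromosome 7, read 7.30 ± 0.13 and 7.40 ± 0.13, and 7.58 ± 0.09 and 7.57 ± 0.25. Abca17, near background, read 6.82 ± 0.15 and 6.92 ± 0.09. Over subfamily A, 3 of 14 measured members rose and none fell in the limma fit, beside 7.97% and 9.04% of all entries. An unadjusted p under 0.05 was reached by 4 of 14, beside 30.2% of all entries. The log2 fold changes were positive for 12 of 14, beside 50.4% of all entries, with a median of 0.17.

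Among the multidrug efflux pumps, both genes for mouse P-glycoprotein fell. P-glycoprotein expels many hydrophobic drugs, and in mouse Abcb1a and Abcb1b share the work of the single human ABCB1. Abcb1b read 11.45, 11.17 and 11.68 before and 9.80, 9.68 and 10.27 after differentiation. The lowest undifferentiated array was above the highest differentiated one, and its log2 fold change was -1.51 ± 0.18 SE (limma, adjusted p = 0.000835). With any 1 array left out it ran from -1.69 to -1.39 and stayed called. The differentiated arrays still read 2.99 to 3.54 above the random-sequence probes.

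Abcb1a read 7.70, 7.76 and 7.93 before and 7.57, 7.23 and 7.38 after, closer to background, at 0.91 to 1.20 and then 0.54 to 0.83 above the random-sequence probes. The groups did not overlap but came within the spread of a single group. Its log2 fold change was -0.40 ± 0.12 SE (limma, adjusted p = 0.0455), and the call was lost without differentiated replicate 2 or 3 or any 1 of the undifferentiated arrays. Abcb1a, Abcb1b and Abcb4 adjoin on chromosome 5 and are close paralogs, and cross-hybridisation between them was not tested. Abcb4, which flips phosphatidylcholine into bile, read 8.76 ± 0.25 and 8.59 ± 0.11 and was not called (log2 fold change -0.17 ± 0.14 SE). Whether the paralogs differed in their change was not tested.

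The other measured drug pumps were not called. Abcc1, which exports glutathione conjugates and leukotriene C4, read 12.76, 12.86 and 13.00 before and 12.68, 12.72 and 12.54 after. Its groups did not overlap, and its log2 fold change was -0.22 with a 95% interval from -0.46 to 0.01. Abcg2, the breast cancer resistance protein, read 11.04 ± 0.16 and 11.09 ± 0.09, with an interval from -0.20 to 0.30. Thus 2 of 5 pumps on this list fell, beside 9.04% of all entries, and 1 of 5 without differentiated replicate 2 or 3 or any 1 of the undifferentiated arrays. Of 19 genes that sense or conjugate drugs, 2 fell and 2 rose, with a median of 0.07. Their share called, 21.1%, compares with 17.0% of all entries. The aryl hydrocarbon receptor Ahr had a log2 fold change of -1.42 ± 0.13 SE (limma, adjusted p = 0.000235), and Cyp1b1, a cytochrome P450 under its control, of -1.54 ± 0.10 (adjusted p = 3.44e-05). Nqo1, a quinone reductase, rose by 0.45 and the glutathione transferase Gstt1 by 0.41. Neither rise was called if undifferentiated replicate 1 or 2 was left out, nor if differentiated replicate 1 or 2 was, and that of Nqo1 was also lost without differentiated replicate 3. Without undifferentiated replicate 3 the list had 4 falls.

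**Figure D3:**
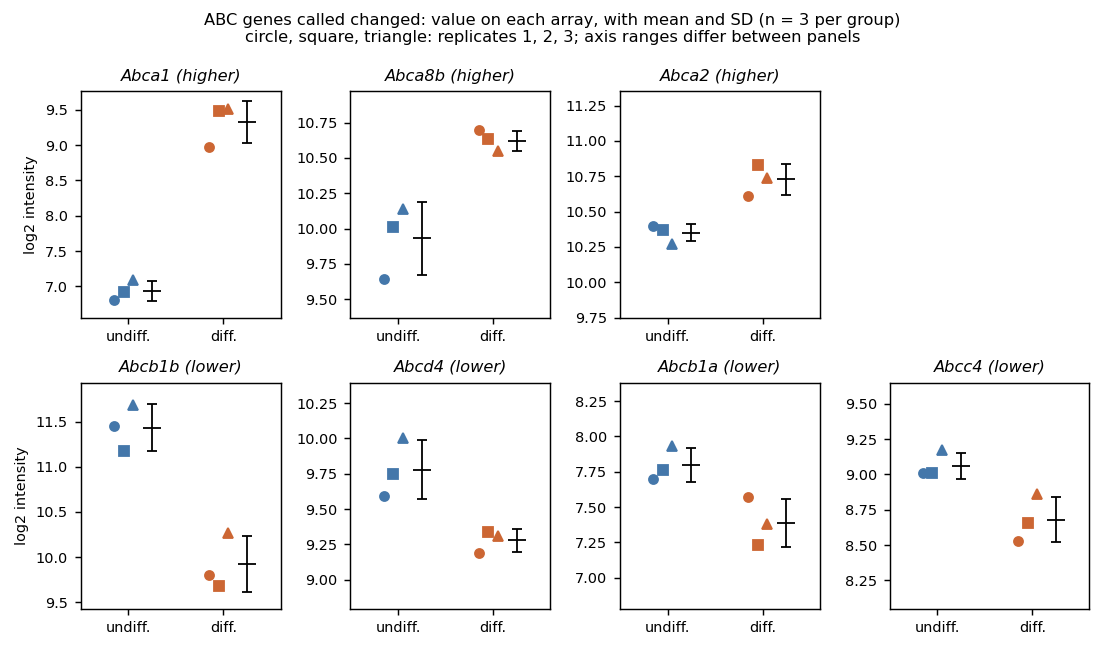
Log2 intensity on each array for the 7 members called changed, with the mean and SD of each group (n = 3). The 2 groups do not overlap in any panel, and the vertical span is wider for Abca1 and Abcb1b than for the others.

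Among the transporters of organic anions and nucleotides, 1 of 5 fell, beside 9.04% of all entries. Abcc4, which exports cyclic nucleotides, prostaglandins and urate, read 9.01, 9.01 and 9.17 before and 8.53, 8.66 and 8.86 after. The groups did not overlap, with a log2 fold change of -0.38 ± 0.11 SE, and the adjusted p of 0.0497 (limma) was at the edge of the threshold. The call held without differentiated replicate 3 but was lost without any other single array, where the adjusted p reached 0.175. Abcc5, another cyclic nucleotide exporter, read 10.47, 10.77 and 10.43 before and 10.23, 10.25 and 10.10 after (log2 fold change -0.36, adjusted p = 0.0643). Its second probe set gave -0.22. Abcc10, a broad drug and conjugate pump, read 9.62, 9.59 and 9.82 before and 10.18, 9.95 and 9.99 after (0.36, adjusted p = 0.0532). Abcc5 and Abcc10 were both called without undifferentiated replicate 3. Abcc12, of unknown substrate, read 8.67 ± 0.15 and 8.63 ± 0.05.

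Abcc6, on chromosome 7, read 9.97, 9.93 and 9.55 before and 10.06, 9.75 and 9.47 after differentiation. The arrays of the groups interleaved, and the log2 fold change was -0.06 ± 0.17 SE with a 95% interval from -0.44 to 0.33. Of 6 measured genes that make, break or carry pyrophosphate and phosphate, 3 rose, beside 7.97% of all entries, and 2 did so without undifferentiated replicate 2 or any 1 of the differentiated arrays, where the call of Enpp1 was lost. Alpl, the phosphatase that hydrolyses pyrophosphate, rose by 3.02 ± 0.09 (limma, adjusted p = 4.88e-07), Nt5e, which makes adenosine from AMP, by 2.43 ± 0.11 (adjusted p = 6.11e-06) and Enpp1, which makes pyrophosphate from ATP, by 0.49 ± 0.12 (adjusted p = 0.026). Whether these changes differed from that of Abcc6 was not tested.

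Among the members of peroxisome and lysosome, 1 of 4 fell, beside 9.04% of all entries. Abcd4, on chromosome 12, moves cobalamin out of lysosomes. It read 9.59, 9.75 and 10.00 before and 9.19, 9.34 and 9.31 after, lower on every differentiated array. Its log2 fold change was -0.50 ± 0.12 SE (limma, adjusted p = 0.0242), and it was not called without undifferentiated replicate 2 or any 1 of the differentiated arrays, with an adjusted p of up to 0.0906.

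The other members of this list were not called. Abcd2, a transporter of very-long-chain acyl-CoA, read 7.75 ± 0.14 and 7.54 ± 0.12, and Abcd3, an abundant peroxisomal membrane protein, 11.96 ± 0.10 and 11.94 ± 0.15. Abcb9, a lysosomal peptide transporter, read 9.24 ± 0.06 and 9.25 ± 0.20. Of 21 measured genes of peroxisome assembly and very-long-chain fatty acid oxidation, 4 rose and none fell in the limma fit, beside 7.97% and 9.04% of all entries, and 9 of 21 had an unadjusted p under 0.05, beside 30.2% of all entries. The share called, 19.0%, was near the 17.0% of all entries. The median log2 fold change was 0.05. Phyh, which starts the breakdown of phytanic acid, rose by 0.54, the bifunctional enzyme Hsd17b4 by 0.39, the import factor Pex19 by 0.38 and the oxidase Acox3 by 0.29 (limma, adjusted p from 0.0251 to 0.0487). The 4 rises became 6 without undifferentiated replicate 3, 2 without differentiated replicate 1, and none when any other single array was left out. There was 1 fall without undifferentiated replicate 2 or 3.

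The mitochondrial members gave no calls. Abcb6, linked to porphyrin transport, read 11.14 ± 0.26 before and 11.34 ± 0.06 after. Abcb8, of the inner membrane potassium channel, read 10.89 ± 0.05 and 11.07 ± 0.14, and Abcb10, which supports haem synthesis, 10.73 ± 0.31 and 10.63 ± 0.15. Of 20 measured genes of haem and iron-sulphur cluster synthesis, Cpox, the coproporphyrinogen oxidase, fell by 1.08 on the log2 scale (limma, adjusted p = 0.00363) and Urod, the uroporphyrinogen decarboxylase, rose by 0.36 (adjusted p = 0.0387). The share called, 10.0%, compares with 17.0% of all entries, and the median of the 20 was -0.03. The rise of Urod was not called without any 1 of the 6 arrays.

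The members that act at the ribosome read far above background and were not called. Abce1, which splits ribosomes after termination, read 11.63 ± 0.17 and 11.55 ± 0.09, and Abcf1, an initiation factor, 13.20 ± 0.09 and 13.28 ± 0.02. Abcf2 read 12.66, 12.97 and 12.98 before and 13.20, 13.17 and 13.27 after, without overlap (log2 fold change 0.34, adjusted p = 0.0724), and Abcf3, a relative of the yeast stress regulator Gcn20, 13.13, 13.03 and 13.35 before and 13.39, 13.46 and 13.40 after (0.24, adjusted p = 0.168). Both were called without undifferentiated replicate 3. Of 16 measured translation partners, whose median was 0.15, 18.8% were called, near the 17.0% of all entries. The 3 called all rose: the ribosome rescue factor Hbs1l by 0.53, the eIF2B subunit Eif2b4 by 0.42 and the eIF2 subunit Eif2s3x by 0.32 (limma, adjusted p from 0.0189 to 0.0389). The count was 4 without undifferentiated replicate 3, 1 without undifferentiated replicate 2 or differentiated replicate 3, and 0 without any of the other arrays.

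The sulphonylurea receptors, which regulate ATP-sensitive potassium channels, were not called. Abcc8 read 8.86 ± 0.13 before and 9.05 ± 0.08 after. Abcc9 read 8.92, 8.46 and 8.91 before and 8.95, 9.14 and 9.01 after, without overlap. Its 3 probe sets disagreed in sign, with log2 fold changes of 0.27, -0.07 and -0.21, none of them called. Their pore subunits lie beside them in the genome, Kcnj11 next to Abcc8 and Kcnj8 next to Abcc9. Kcnj11 had a log2 fold change of 0.08 and Kcnj8 of 0.04, neither called. Of the liver and gut transporters of bile acids and sterols, Abcc2, a conjugate pump of the bile canaliculus, read 7.52 ± 0.21 and 7.39 ± 0.10, and Abcg5, partner of Abcg8, 9.85 ± 0.27 and 9.99 ± 0.28. None of the 5 genes of that list was called by limma, beside 17.0% of all entries. An unadjusted p under 0.05 was reached by 0 of 5, beside 30.2% of all entries. The list includes Abcb11 and Abcg8, which read at or below the random-sequence probes on every array of at least 1 group. Abcg3, a rodent relative of Abcg2, read 7.38 ± 0.11 and 7.41 ± 0.17.

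Genes of the ABC family outside the symbol rule gave 2 more calls among 3, both lower, beside 9.04% of all entries. Tap1 and Tap2, which together carry peptides into the endoplasmic reticulum for class I antigen presentation, read 11.09 to 11.21 and 12.11 to 12.37 before and 10.56 to 10.77 and 11.77 to 11.92 after. Their log2 fold changes were -0.50 ± 0.10 SE (limma, adjusted p = 0.00893) and -0.37 ± 0.10 (adjusted p = 0.0427). Without differentiated replicate 2 neither was called, and Tap2 was called without undifferentiated replicate 3 but lost without each of the other arrays. A list of 7 other genes of class I peptide loading leaves out Tap1 and Tap2, so it does not stand for the whole peptide loading complex. None of these 7 was called by limma, beside 17.0% of all entries. An unadjusted p under 0.05 was reached by 0 of 7, beside 30.2% of all entries. Among them Tapbp, the tapasin that holds class I molecules at TAP, was at -0.21. No fold is given for Calr, the chaperone that read near background. Cftr, the chloride channel, had a log2 fold change of 0.07 and was not called.

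**Figure D4:**
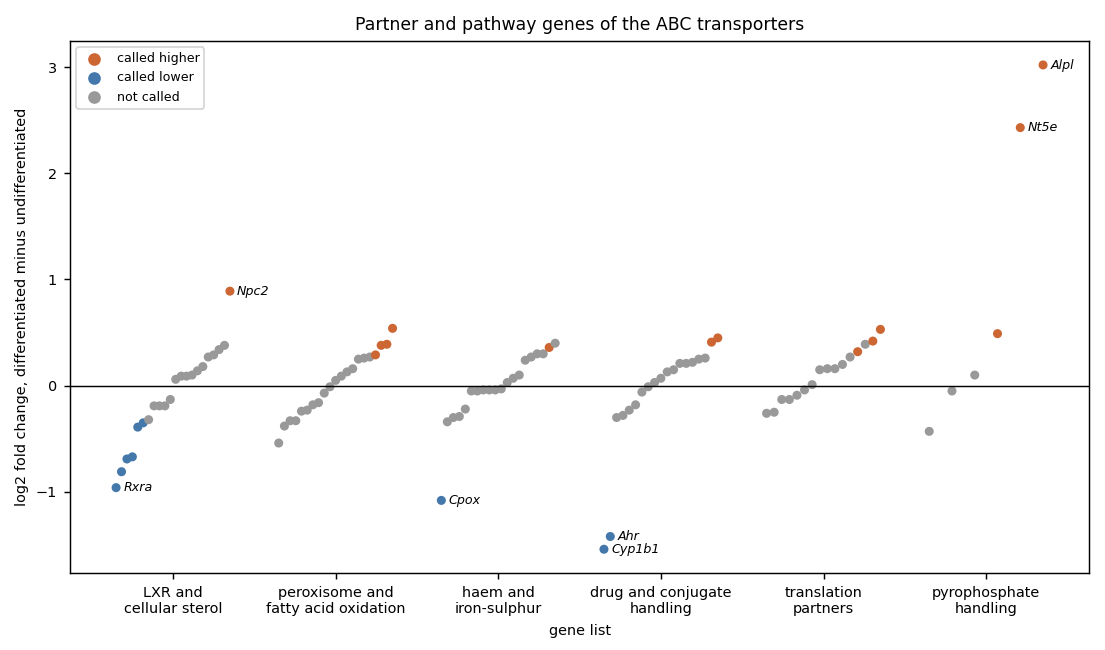
Log2 fold change of each measured gene of 6 partner and pathway lists, differentiated minus undifferentiated, ordered by value within a list. Alpl (3.02) and Nt5e (2.43) lie highest, and Cyp1b1 (-1.54), Ahr (-1.42) and Cpox (-1.08) lowest.

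The 7 calls differed in how far they depended on the settings. Abca8b and Abcb1b were called under all 20 alternatives, and Abca1 under the 19 that tested it, since a filter at the 25th percentile of mean level removed it. Their log2 fold changes ran from 0.55 to 0.83, from -1.69 to -1.39 and from 2.00 to 2.60. The other 4 calls were each lost without at least 4 of the 6 arrays. At an adjusted p under 0.01, passed by 7.59% of all entries, the members called were Abca1, Abca8b and Abcb1b.

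**Figure D5:**
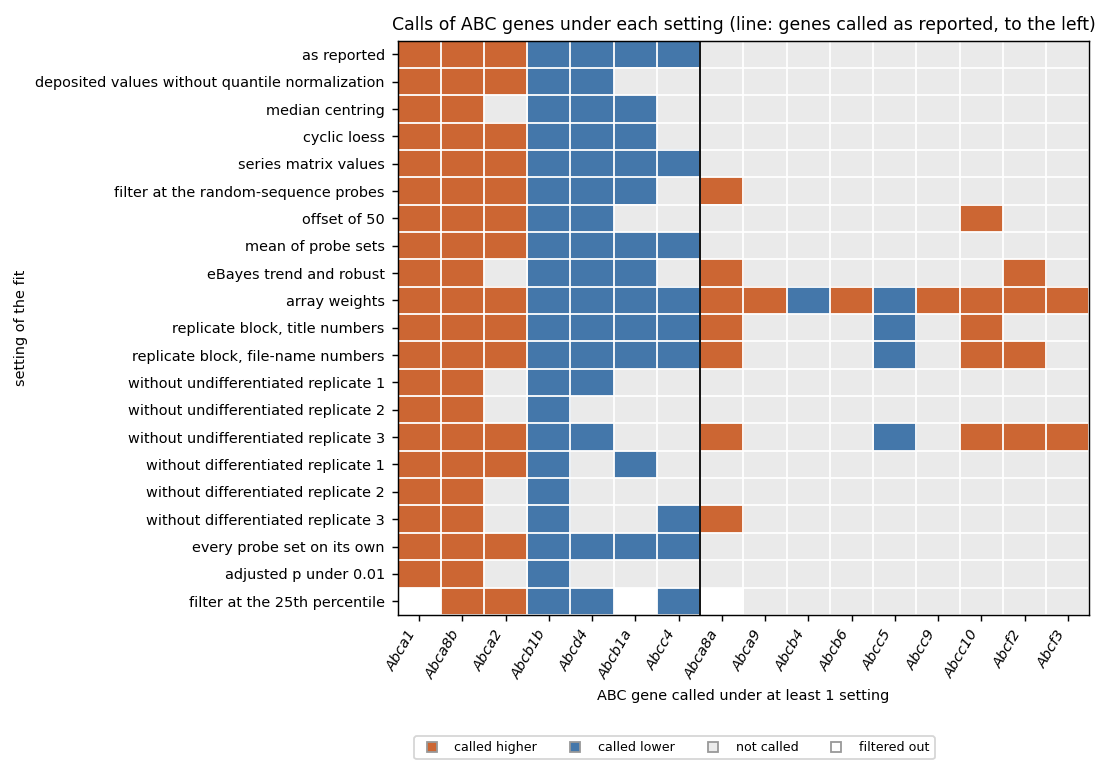
Calls of the 16 members called under at least 1 setting, 1 setting per line, with the 7 reported calls to the left of the black line. The columns of Abca8b and Abcb1b are filled throughout, that of Abca1 has 1 gap where a filter removed it, and array weights fill all 16.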

How the data were processed

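The deposited values are linear intensity values per probe set, made by the authors with RMA, per the submitters' processing notes. The sources used here name no software version and no build of the array design. The deposited series table holds identical values (100% of 42586 probe sets), with differentiated replicates 1 and 2 exchanged relative to the array files. The replicate numbers here are those of the sample titles, and the groups are the same either way.

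Intensities were put on the log2 scale and quantile normalized together, because the arrays' sorted values differed by a median of up to 0.135, above the limit of 0.02 set for keeping them as deposited. Probe sets were named through RefSeq, 17846 by transcript accession and 130 by gene name, and 24610 stayed unnamed. The probe set with the highest mean stood for a gene with several (563 genes), and 48 probe sets fell on the 45 members. Some genes are not reported here and are left out of the members and lists. The RefSeq gene table gave names, chromosomes and neighbours only. Differentiated minus undifferentiated was fitted over all 41938 entries by lmFit and eBayes of limma 3.58.1 (R 4.3.3), two-sided and without covariates, and an entry was called where its p, adjusted by Benjamini-Hochberg, was under 0.05.

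The members, gene lists and settings were chosen with earlier results of these data known. Named with every array's value is each called member, with group values the members above the random-sequence probes that were not called, and from each related list at most the 4 called genes that changed most, or 2 genes where there was no call. Some members that were not called are given by array as well, and other exceptions are said in the text. Alternatives changed the normalization, source table, filters, offset, probe set rule, eBayes options, array weights, replicate block and threshold, or left out an array. On simulated data with 200 changed entries among 41938, the same fit recovered 67.0% of changes of 1 and 8.0% of changes of 0.5 on the log2 scale, with 2 false calls. In the data 7136 entries were called, so the adjusted threshold was less strict there. The recovered shares are therefore not the power of the reported fit. Precision is limited by 3 arrays per group, and counting depth does not apply to intensities.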

Additional observations from a re-analysis of the deposited data

How the results depend on the processing

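Over the 45 members and 20 alternatives, 883 results were compared: 794 kept their direction and side of the threshold, 32 lost a call, 26 gained one and 31 changed sign, none of them called. The causes of these differences were not tested. Part of the agreement was fixed in advance, since the series table held the same values and the stricter threshold could add no call. The mean of probe sets could move the log2 values of no members but Abcc5 and Abcc9, which had several. Fitting every probe set on its own reused the same member values in a slightly larger table. Both of these settings kept all 7 calls and gained none. Members called higher were 3 as reported, 10 with array weights, 5 with a replicate block from the titles, 6 with one from the file names and 2 to 7 with 1 array left out. Members called lower were 4, and 6 with array weights, 2 on the deposited values, 2 with an offset of 50, 1 at an adjusted p under 0.01 and 1 to 3 with 1 array left out. All entries called were 3344 higher and 3792 lower, 7588 and 8252 with array weights, 1608 and 1577 at an adjusted p under 0.01, and 1571 to 4546 and 1571 to 4843 with 1 array left out. Whether replicate numbers pair the samples cannot be told from 3 arrays per group, and the reported fit used no pairing. Same-numbered arrays correlated in their deviations at 0.33, -0.14 and 0.46 by title and at 0.43, -0.01 and 0.46 by file name. Arrays that matched by neither numbering correlated at -0.52 to 0.11. With the title numbers as a replicate block 4119 entries were higher and 4867 lower, and 5 and 5 members. With the file-name numbers 4786 and 5708 were, and 6 and 5 members.

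The sign changes were all of members or partners with no called direction. With 1 array left out, the log2 fold changes ran from -0.04 to 0.14 for Abca3, -0.13 to 0.12 for Abca4, -0.12 to 0.12 for Abca15, -0.08 to 0.12 for Abcb9, -0.26 to 0.05 for Abcb10, -0.21 to 0.09 for Abcc6, -0.13 to 0.02 for Abcc12, -0.08 to 0.07 for Abcd3, -0.13 to 0.02 for Abce1, -0.14 to 0.0006 for Abcg1, -0.01 to 0.14 for Abcg2, -0.06 to 0.11 for Abcg3, -0.24 to 0.08 for Abcg4, -0.01 to 0.27 for Abcg5 and -0.08 to 0.20 for Kcnj11. Array weights gave Abca4 -0.19, Abca15 0.05, Abcd3 0.10, Abcg3 -0.03, Kcnj11 -0.03 and Kcnj8 -0.05. The deposited values gave Abca15 0.01, cyclic loess Abcd3 0.01 and the mean of probe sets Abcc9 -0.0044. Signal over background limits Abca1 before differentiation and Abca17, and gives no change for Abcb11, Abcc3 and Abcg8.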
